A study of Glycine max with 6 samples.

Results

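The probe sets described here are those of the soybean (Glycine max) genes named as pathogenesis-related proteins. A probe set was taken if its identifier starts with Gma and every gene paired with it in the platform's probe-to-gene table bears a PR number or the name SAM22, as symbol or synonym; pseudo-response regulators (PRR) were left out. This gave 7 probe sets of 4 genes, PR10, PR-10, PR1-7 and PR1-1, among 37593 soybean probe sets and 61170 on the array. PR10 and PR-10 are different genes despite the near-identical symbols, and PR-10 is the one also called SAM22. Another 6 RefSeq genes named by the same pattern, all of the PR1 series, have no probe set paired with them alone in the table and are not analysed here.

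Sprayed leaves of cultivar OAC Bayfield were compared between a Nod factor and a mock treatment. LCO leaves were first trifoliolate leaves of V1 plants sprayed with 2 mL of water holding 1e-07 M of a lipo-chitooligosaccharide (Nod factor NodBj-V of Bradyrhizobium japonicum) and 0.02% Tween 20. Water leaves were sprayed with 2 mL of water and 0.02% Tween 20, and both kinds were harvested 48 h later, with 3 Affymetrix arrays per group and no unsprayed leaves among the arrays. Whether the replicates are different plants or pools is not said in the labels, and the p-values here then reflect only how far these samples scatter, technical scatter included.

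Pathogenesis-related proteins are plant proteins that accumulate after infection or wounding and are read as markers of defence. PR1 proteins are small secreted proteins with antimicrobial activity, whose genes respond to salicylic acid in tobacco and Arabidopsis. PR10 proteins are small intracellular proteins of the birch pollen allergen family, which bind small hydrophobic molecules. SAM22 was first described in soybean as a starvation-associated message. Nod factors resemble the chitin fragments by which plants sense fungi, and defence genes are therefore of interest in sprayed leaves.

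PR10 was lower on every LCO array than on every water array, and so was PR1-7 in the brighter of its probe sets. The estimates were 5.43-fold lower with LCO for PR10 and 5.12-fold for PR1-7, and neither passed the adjusted threshold of 0.05. In whole leaves, fewer cells of a type and less RNA per cell cannot be told apart. PR-10 had overlapping groups in its brightest probe set. PR1-1 did not exceed the background level on any array. All values are the deposited RMA values, taken as log2, and a probe set was tested if its mean over the 6 arrays exceeded 3.31, the percentile 90 of the means of 23394 probe sets for other organisms. Of the 7, 3 were tested, 1 each of PR10, PR1-7 and PR-10.

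**Figure D1:**
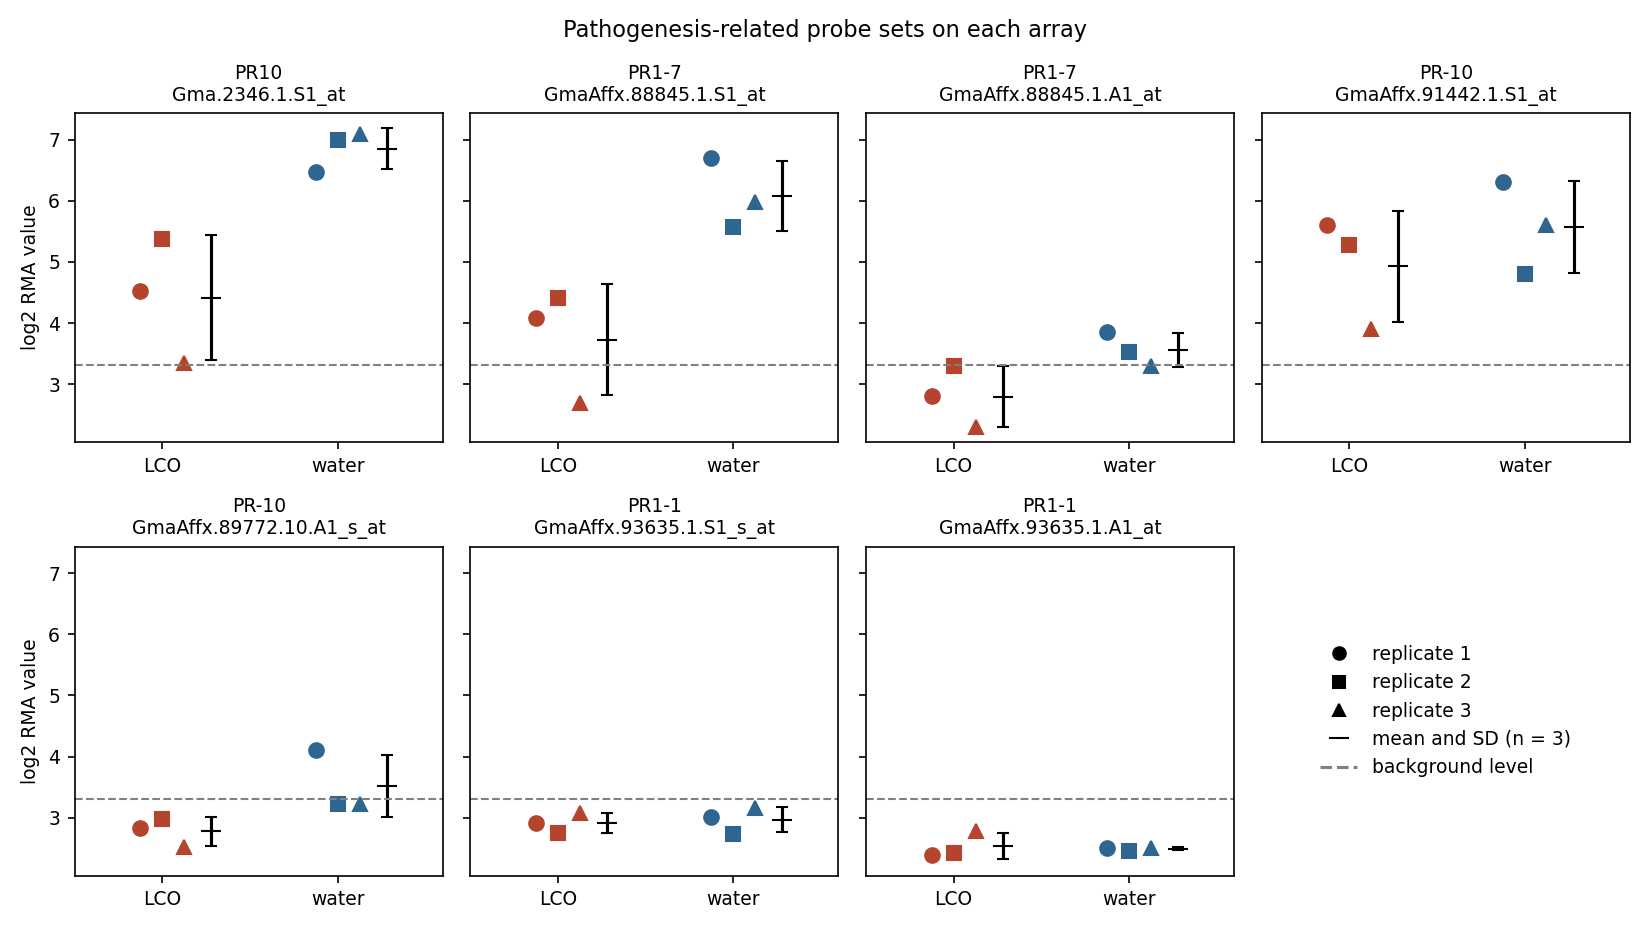
Log2 RMA values (vertical axis) of the 7 pathogenesis-related probe sets on the 3 LCO arrays (red) and 3 water arrays (blue), with mean and SD beside them and the background level of 3.31 as a dashed line. PR10 and the brighter PR1-7 probe set lie lower on all 3 LCO arrays, PR-10 overlaps, and PR1-1 stays under the line on all 6.

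PR10, with a single probe set, had log2 values of 4.52, 5.38 and 3.34 on the LCO arrays, against 6.47, 7.00 and 7.10 on the water arrays. The highest LCO array lay 1.09 below the lowest water array, and LCO 3 was close to background. The means were 4.42 ± 1.03 with LCO and 6.86 ± 0.34 with water (SD, n = 3 each). The log2 change was -2.44 (SE 0.49, limma adjusted p = 0.0538), or 5.43-fold lower with LCO with a 95% interval from 2.38 to 12.4. Only 52 of the 29286 tested probe sets had a more negative estimate, or 0.178% of them.

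In the brighter of its 2 probe sets, PR1-7 had log2 values of 4.08, 4.41 and 2.69 with LCO, against 6.70, 5.56 and 5.99 with water. Here the gap between the groups was 1.15, and LCO 3 was below background while the other LCO arrays were above it. The log2 change was -2.36 (SE 0.50, limma adjusted p = 0.0584), or 5.12-fold lower with LCO with a 95% interval from 2.25 to 11.7. The dimmer PR1-7 probe set is paired with the same source sequence, and by the manufacturer's naming the letters A and S in the identifiers mark opposite orientations, A being the dimmer one. Its log2 values were 2.80, 3.29 and 2.29 with LCO and 3.85, 3.53 and 3.29 with water, so its groups just overlapped and no LCO array exceeded background. It was not tested; in a fit of all soybean probe sets its log2 change was -0.76 (SE 0.27, limma adjusted p = 0.162).

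PR-10 (SAM22) is represented alone by 2 probe sets. The brighter had log2 values of 5.61, 5.27 and 3.90 with LCO, against 6.30, 4.80 and 5.61 with water. LCO 1 and LCO 2 lay within the range of the water arrays and LCO 3 lay below it. The log2 change was -0.64 (SE 0.54, limma adjusted p = 0.483), and the 95% interval from -1.93 to 0.64 holds both a fall and a rise. This estimate rests on single arrays: it was -0.13 without LCO 3, -0.28 without water 1, -0.98 without LCO 1 and -1.03 without water 2. The dimmer bears the letter A in its identifier. Its counterpart with the letter S is the dimmest of the probe sets shared with the gene LOC100101844, described below. The dimmer PR-10 probe set had log2 values of 2.83, 2.98 and 2.51 with LCO and 4.11, 3.22 and 3.23 with water. Only water 1 exceeded background there, so that although the groups did not overlap the probe set was not tested, and its log2 change in the fit of all soybean probe sets was -0.74 (SE 0.26, limma adjusted p = 0.165).

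PR1-1, also called PR1a, was not above background. Its brighter probe set had log2 values of 2.91, 2.75 and 3.08 with LCO and 3.01, 2.74 and 3.15 with water. Its dimmer probe set, which bears the letter A of the opposite orientation, had 2.38, 2.43 and 2.77 with LCO and 2.50, 2.46 and 2.51 with water. Both groups overlapped in both probe sets, and no fold is given because neither group exceeded background. In the fit of all soybean probe sets the limma adjusted p was 0.866 and 0.882. The transcript was therefore not detectable on these arrays in either group, which is no statement on its absence.

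None of the 3 tested probe sets passed limma's adjusted threshold of 0.05, where 3.55% of the 29286 tested soybean probe sets did. At an unadjusted p under 0.05 the number was 2 of 3, against 25.8% of all tested. Groups that did not overlap, with LCO lower, were seen in 2 of the 3, and in 16.3% of all tested. The median log2 change of the 3 was -2.36, and that of all tested probe sets -0.01. A log2 change of -2 or below was reached by 2 of the 3 and by 0.307% of all tested. These are descriptions of 3 probe sets that were the ones bright enough to test. The genes were also chosen with earlier results of these data known, so these shares do not test them. The call for PR10 was near the threshold, and passed it when each array was centred on its median (limma adjusted p = 0.0495, where 3.83% of all tested passed), when the arrays were quantile normalised again (0.0495, 3.69% of all tested), and without LCO 2 (0.0410, 1.42% of all tested). It moved away from the threshold when water 1 and water 2 were averaged (0.168), without water 1 (0.157) and without water 2 (0.191), and was between 0.0667 and 0.0939 without LCO 1, LCO 3 or water 3.

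**Figure D2:**
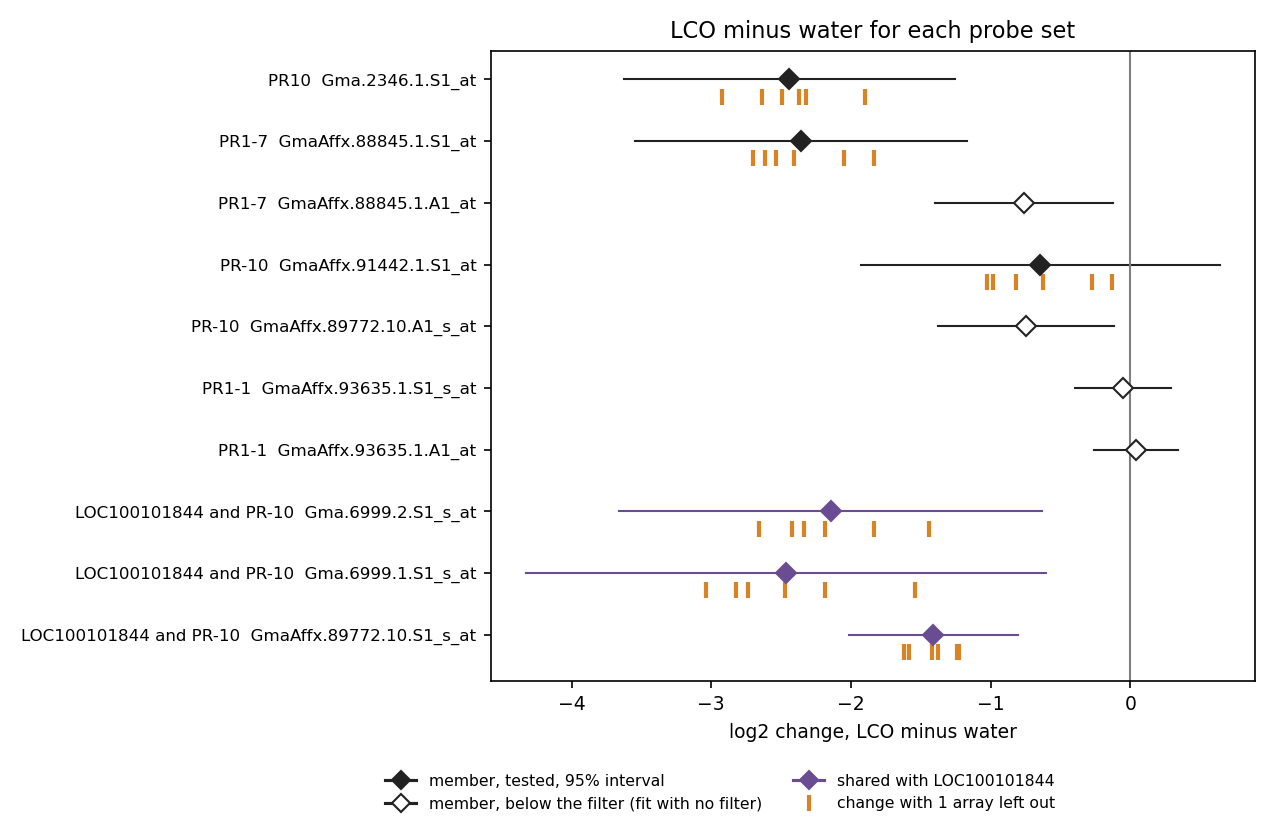
Log2 change, LCO minus water (horizontal axis), of each probe set, with its 95% interval. Filled black points are the 3 tested probe sets, open points the 4 under the filter (fit with no filter), purple points the 3 probe sets shared by PR-10 and LOC100101844, and orange ticks the change with 1 array left out. All estimates for PR10 and PR1-7 stay between -2.92 and -1.84 with an array left out, while those of PR-10 run from -1.03 to -0.13.

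A further 3 probe sets are paired with PR-10 together with LOC100101844, the gene next to it on the same chromosome in the RefSeq annotation of Glycine_max_v4.0. They fall outside the rule, and show what a measurement shared by the neighbours gave. The brightest had log2 values of 6.08, 5.45 and 3.66 with LCO and 7.83, 7.13 and 6.66 with water, a log2 change of -2.14 (SE 0.63, limma adjusted p = 0.108). The second brightest had log2 values of 6.01, 5.57 and 3.01 with LCO, against 7.89, 7.32 and 6.78 with water, a log2 change of -2.47 (SE 0.78, limma adjusted p = 0.120). Both were lower on every LCO array than on any water array, with LCO 3 far below LCO 1 and LCO 2. Without LCO 3 the log2 changes were -1.44 for the brightest and -1.54 for the other.

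The dimmest shared probe set had log2 values of 3.31, 2.81 and 2.54 with LCO, against 4.67, 4.28 and 3.96 with water. LCO 1 lay at the background level and the other LCO arrays below it, so the probe set passed the filter through the water arrays alone and had to differ to be tested. No fold is given for it. Its limma adjusted p was 0.0400 (0.0406 in the fit of all soybean probe sets), and nothing is read from this call. Its call ended in 4 of the 6 fits that leave out an array, without LCO 2 (adjusted p = 0.104), LCO 3 (0.104), water 1 (0.147) or water 2 (0.155).

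The responses of the probe sets to LCO were also set against each other, array by array, in 6 pairs. The log2 value of the brighter PR-10 probe set minus that of the second brightest shared one was -0.40, -0.30 and 0.89 with LCO, against -1.58, -2.52 and -1.17 with water. These differences did not overlap between the groups, and their mean was 1.82 higher with LCO, so that the probe set of PR-10 alone had the less negative response. Against the brightest shared probe set the differences did not overlap either, and were 1.50 higher with LCO, while against the dimmest shared one they overlapped. PR10 minus PR-10 was -1.08, 0.11 and -0.56 with LCO, against 0.17, 2.20 and 1.49 with water, and PR1-7 minus PR-10 was -1.52, -0.86 and -1.21 with LCO, against 0.40, 0.76 and 0.38 with water. The change of these differences with LCO was -1.80 for PR10 and -1.71 for PR1-7, so that PR-10 had the less negative response in both. With 3 arrays against 3 the two-sided exact permutation p is 0.1 at its smallest, which these 4 pairs reached (0.15 adjusted over the 6 pairs). This test could therefore not place them past 0.05. All 4 pairs contain the brighter PR-10 probe set, so they are not separate observations. How often differences between other pairs of probe sets fail to overlap was not computed. For single probe sets, the groups did not overlap, in either direction, in 31.5% of all tested.

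PR10 and PR1-7 differed less in their response. PR10 minus PR1-7 was 0.69 ± 0.27 with LCO and 0.77 ± 0.89 with water (SD, n = 3 each), with overlapping groups and an exact permutation p of 0.9. The spread of the water values allows a difference of either sign.

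**Figure D3:**
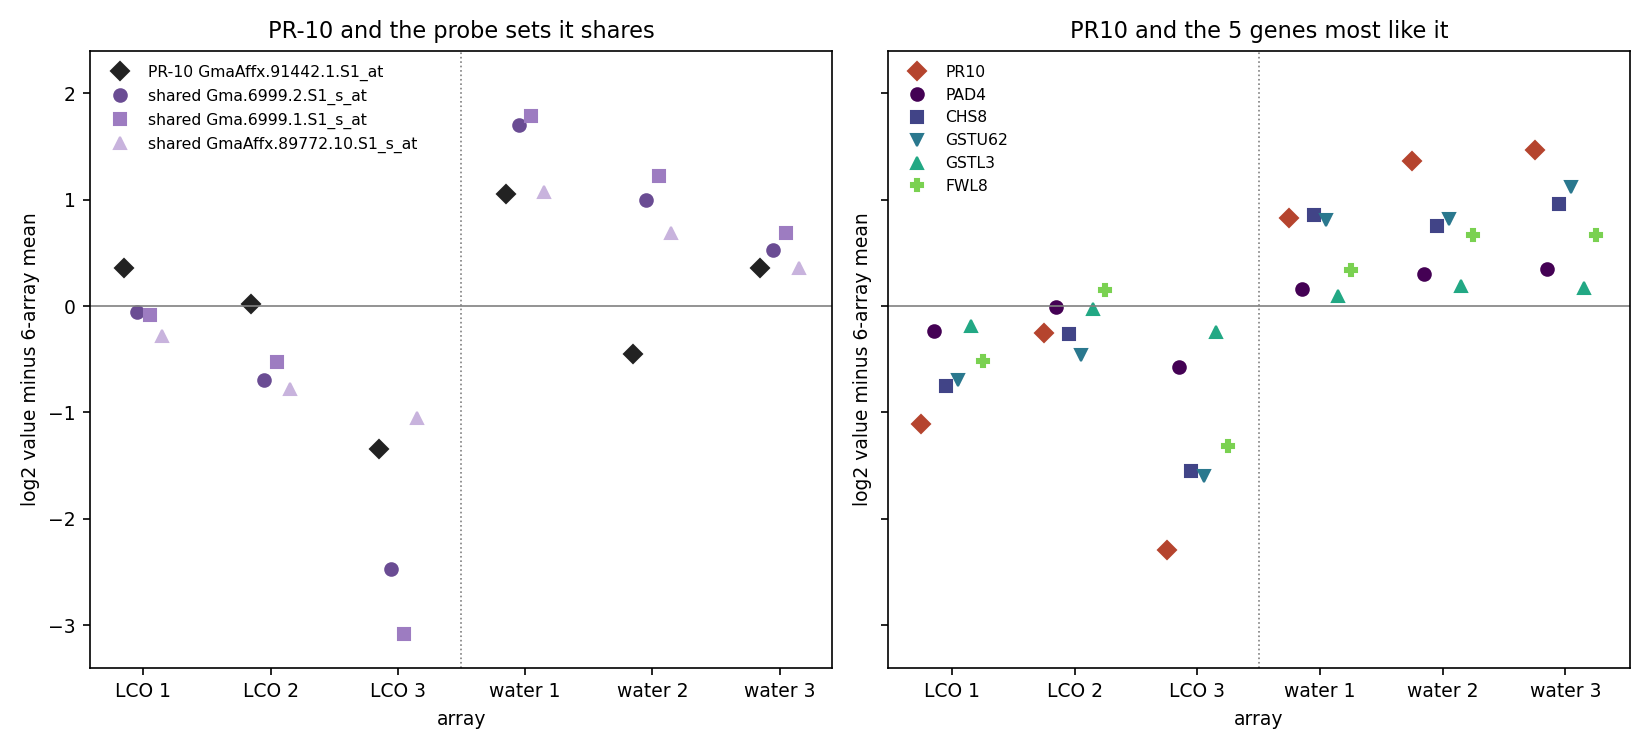
Log2 value minus the mean over the 6 arrays (vertical axis) on each array (horizontal axis, LCO left of the dotted line). Left, the brighter PR-10 probe set (black) and the 3 shared with LOC100101844 (purple): on water 2 PR-10 is below its mean while the shared ones are above theirs. Right, PR10 (red) and the 5 named genes with the most similar values, which all have their lowest value on LCO 3.

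The arrays of a group differed widely in these genes. Over all tested probe sets the median within-group SD was 0.18 with LCO and 0.14 with water. With LCO the SD was 1.03 for PR10, 0.92 for PR1-7 and 0.90 for PR-10, and 0.751%, 1.14% and 1.22% of all tested probe sets had a larger one. LCO 3 was the lowest LCO array in all 3 tested probe sets, as it was in 33.0% of all tested. It lay 1.19 below the next LCO array for PR10, 1.39 for PR1-7 and 1.37 for PR-10, and a gap of at least 1 in that direction occurred in 0.598% of tested probe sets.

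The water arrays were closer for PR10 than for the others. Water 1 and water 2 were the pair of arrays most alike over the tested probe sets, with an SD of 0.20 for their difference, and the next pair, LCO 2 and LCO 3, had 0.34. For PR-10, however, water 1 exceeded water 2 by 1.50, and 8 of the 29286 tested probe sets differed more between these arrays. For PR1-7 water 1 was higher by 1.14, with 33 probe sets differing more. For PR10 water 1 was the lower, by 0.53, with 631 differing more. A difference of at least 1 between these arrays was seen in 0.184% of the tested probe sets.

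**Figure D4:**
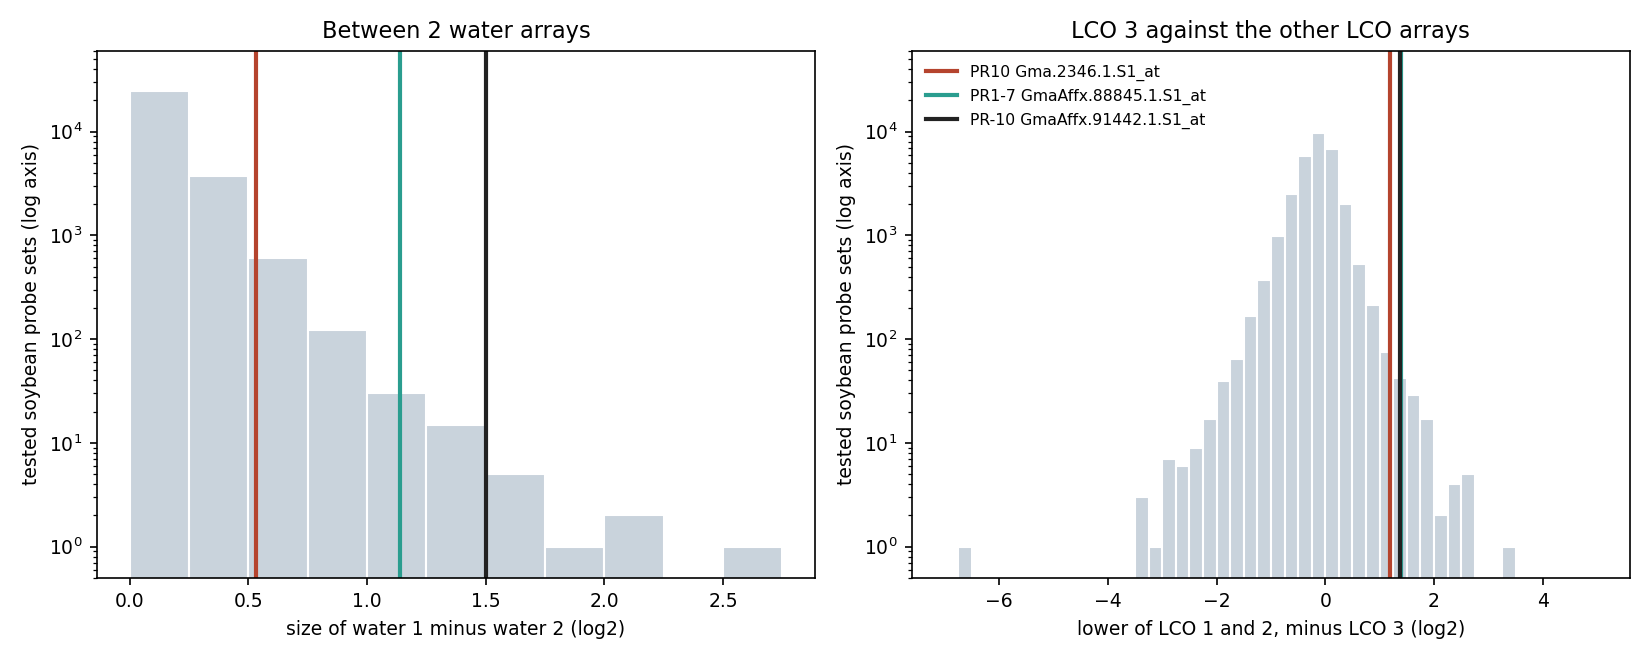
Number of tested soybean probe sets (vertical log axes) by the size of the difference between water 1 and water 2 (left) and by how far LCO 3 lies below the lower of LCO 1 and LCO 2 (right, log2 units). Coloured lines mark PR10, PR1-7 and PR-10, which lie at 0.53, 1.14 and 1.50 on the left and at 1.19, 1.39 and 1.37 on the right, in the right-hand tails.

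A sign of RNA quality separated the groups, with no overlap, in 1 of the 3 controls with a bright 5′ probe set. For the P450 control gene, the 3′ probe set exceeded the 5′ one by 2.14, 1.74 and 2.92 on the log2 scale on the LCO arrays, against 1.01, 0.97 and 0.95 on the water arrays. In this control LCO 3, the lowest array for PR10, PR1-7 and PR-10, had the largest difference. LCO 2, the highest LCO array for PR10 and PR1-7, had the smallest of the LCO arrays. Of the other bright controls, GlutTrans also had its largest LCO difference on LCO 3, while r2-Gma-actin had its smallest there. For GlutTrans the difference was 0.30, 0.65 and 0.84 on LCO 1, 2 and 3 and 0.15 to 0.79 with water, so that the groups overlapped. For r2-Gma-actin it was 1.36, 1.30 and 1.27 on LCO 1, 2 and 3, smallest on LCO 3, against 1.33, 1.56 and 1.54 with water. Its mean change with LCO was -0.17, against 1.29 for P450 and 0.21 for GlutTrans. The part of RNA quality in the values above was not tested. Leaf identity is visible in 13 tested probe sets of photosynthesis genes, whose mean log2 values per array were 11.42 to 11.57 with LCO and 11.39 to 11.53 with water, and none of 11 seed storage probe sets was bright enough to test. In 7 tested probe sets of 6 sieve element genes, markers of phloem, the mean log2 values were 4.99 to 5.54 with LCO and 4.56 to 4.64 with water, highest on LCO 3. None of the 7 passed, and 5 had an unadjusted limma p under 0.05, against 25.8% of all tested soybean probe sets. The part of phloem in the values above was not tested either.

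Among the soybean probe sets paired with a single informative gene name, those most like PR10 over the 6 arrays were of PAD4 (Pearson r = 0.995), CHS8 (0.988), GSTU62 (0.986), GSTL3 (0.984) and FWL8 (0.981). PAD4 is a lipase-like regulator of salicylate-linked immunity in Arabidopsis, CHS8 a chalcone synthase of flavonoid synthesis, and GSTU62 and GSTL3 are glutathione S-transferases. The r describes 6 arrays in 2 groups, and 3.36% of all tested probe sets had an r of at least 0.9 with PR10. The likeness is in the pattern over the arrays and not in size: PAD4 had log2 values of 5.81, 6.03 and 5.47 with LCO, against 6.21, 6.35 and 6.39 with water, a log2 change of -0.54 (SE 0.16, limma adjusted p = 0.107). CHS8 and GSTU62 were lower with LCO, with log2 changes of -1.71 (limma adjusted p = 0.0404) and -1.83 (0.0303). Both were at 3.25 on LCO 3, below the background level of 3.31. As they were picked for following PR10, their direction was set by the choice. Their calls held in only some of the 6 fits with an array left out, for CHS8 in those without LCO 2 or LCO 3, and for GSTU62 in those without LCO 2, LCO 3 or water 3.

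Other defence genes were counted in lists by symbol. Of all 29286 tested probe sets 3.55% passed limma's threshold, 25.8% had an unadjusted p under 0.05, and 14930 had a lower estimate with LCO. The list named for salicylate and immune signalling, which also took in the bZIP gene STF2 by its symbol, had 15 tested probe sets of 11 genes. None of the 15 passed limma's threshold and 6 had an unadjusted p under 0.05. Their median log2 change was 0.04, and 7 of 15 estimates were lower with LCO. EDS1-2, the partner of PAD4 in Arabidopsis immunity, had log2 values of 7.74 ± 0.39 with LCO and 8.57 ± 0.13 with water (SD, n = 3 each), a change of -0.83 (SE 0.20, limma adjusted p = 0.0778).

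Antimicrobial effector genes outside the rule gave few measurable probe sets. Of 9 for chitinases and osmotins, enzymes and proteins that also bear PR numbers by class, 3 were tested and none passed at either the adjusted or the unadjusted level. All 3 estimates were lower with LCO, as were 14930 of all 29286 tested. The log2 change was -1.07 (SE 0.45, limma adjusted p = 0.199) for the chitinase gene CHIA1 and -0.50 (SE 0.44, limma adjusted p = 0.513) for the osmotin-like OLPb. Of 10 for protease inhibitors, which block the digestive enzymes of insects and microbes, 3 were tested and none passed. All 3, which are of 2 genes, had an unadjusted limma p under 0.05, against 25.8% of all tested soybean probe sets. The Kunitz inhibitor genes KTI-2 and KTI-3 had log2 changes of -1.16 (SE 0.30, limma adjusted p = 0.0847) and -1.29 (SE 0.39, limma adjusted p = 0.110). The mean of the 3 protease inhibitor probe sets was 6.50 to 7.76 per array with LCO and 8.28 to 8.99 with water, lowest on LCO 3.

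Peroxidases, some of which are also classed as pathogenesis-related, had estimates of both signs. Of 6 tested probe sets, of 4 genes, none passed limma's threshold, and 2 had an unadjusted p under 0.05, near the 25.8% of all tested. Of the 6 estimates 2 were lower with LCO, with a median log2 change of 0.24. PRX2 had log2 values of 10.48 ± 0.23 with LCO and 9.82 ± 0.37 with water (SD, n = 3 each), a change of 0.66 (SE 0.21, limma adjusted p = 0.125). The list of lipid transfer proteins and defensins held 1 tested probe set, of the dirigent gene DIR22, with a log2 change of -1.14 (SE 0.49, limma adjusted p = 0.202).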

How the data were processed

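Total RNA of sprayed first trifoliolate leaves was measured on 6 1-colour Affymetrix soybean arrays. The deposited table holds 1 value per probe set and array, which per the submitters' processing notes is an RMA value; RMA corrects background, equalises array distributions and summarises probes. Its version is not given in the sources used here. The scale of the deposited values is unstated and was taken as log2, since they ran from 1.45 to 14.59. Array medians over tested probe sets ran from 6.84 to 6.89. RMA can lower contrast near the floor.

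Groups came from the titles. Of the soybean probe sets, 8677 have 1 gene in the platform annotation, 370 several and 28546 none in the table used. Probe sets above the percentile 90 of other organisms' probe sets entered a limma 3.58.1 fit under R 4.3.3 (group only, default prior, Benjamini-Hochberg over all 29286, threshold 0.05), tested on simulated data. Pairs of probe sets were compared with exact two-sided permutation tests in scipy 1.17.1. All members were named; each list's genes are those past the threshold or, with none, the 2 with the smallest p, by brightest probe set; likeness took the 5 highest Pearson r to the brightest tested member. The list of other birch-allergen-family genes matched no probe set. That of nodule markers held 2 tested ones, of which none passed (1 at an unadjusted limma p under 0.05, against 25.8% of all tested). Members and lists were chosen with earlier results of these data known. Alternatives covered filter, normalization, prior, array weights, replicate block, threshold, averaging water 1 and 2, and leaving out each array. Genome coordinates are left out, since no build is stated for the array.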

Additional observations from a re-analysis of the deposited data

How the results depend on the processing

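The direction of PR10, PR1-7 and PR-10 was the same under each alternative run. PR10 passed the threshold with quantile normalization over the tested probe sets (log2 change -2.44), median centring (-2.46), array weights (-1.78, or a limma adjusted p of 0.0198) and the replicate block (-2.44, limma adjusted p = 0.0382), and PR1-7 with array weights (-2.03) and the replicate block (-2.36, limma adjusted p = 0.0374). The number of the 3 past the threshold, 0 in the report, was thus 1 with quantile normalization (3.69% of all tested passed) or median centring (3.83%). It was 2 with array weights (32.6% of all tested), the replicate block (10.3%) or a threshold of 0.1 (10.3%). Leaving out an array gave 0 to 1 of the 3. The changes were then -2.92 to -1.90 for PR10 (limma adjusted p from 0.0410 to 0.191), -2.70 to -1.84 for PR1-7 (0.0640 to 0.199) and -1.03 to -0.13 for PR-10. All soybean probe sets past the threshold numbered 1040, and 9544 with array weights, 3010 with the replicate block, 203 with water 1 and 2 averaged, 3030 at 0.1, and 193 to 2207 with an array left out. The cause was not tested. Whether the replicate numbers pair the arrays is not settled. Deviations from the group means correlated across probe sets at 0.452, -0.036 and 0.527 for numbers 1, 2 and 3. LCO 1 correlated nearly as well with water 2 (0.448), and LCO 2 correlated best with water 3 (0.108). The deviations of the 3 arrays of a group add up to 0, so these correlations depend on each other and cannot decide it. The stricter filter, no filter and the trended prior changed no call of the 3. The 3 arrays per group limit the precision. Values near or below the background level on LCO 3 limit what can be measured for PR10, PR1-7 and the shared probe sets.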
